A study of Arabidopsis thaliana with 36 samples.

Results

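The nuclear genes for the proteins of photosystem I, photosystem II and their light-harvesting antennae were followed in Arabidopsis thaliana seedlings grown at 27 or 22 °C. The members were chosen by name, as the nuclear LHCA, LHCB, PSA and PSB loci, and 42 of the 33540 genes measured belong to them. They are 14 LHCB genes for the antenna of photosystem II, 6 LHCA genes for the antenna of photosystem I, 12 PSA genes for photosystem I subunits and 10 PSB genes for photosystem II subunits. All 42 passed the filter on low values in every fit.

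RNA of whole seedlings was sequenced from hda9-1, a mutant of the histone deacetylase gene HDA9, from pif4-2, which carries a mutation in PIF4, a transcription factor that promotes growth, and from the wild type Col-0 (WT). Each genotype was grown at 27 and 22 °C on agar plates in short days (8 h light, 16 h dark) and harvested at an age of 7 or 2 days when the light came on. The 12 groups hold 3 libraries each, and per the labels each library combines RNA of 3 separately harvested batches of more than 50 seedlings. Every library is therefore a pool of whole plants at 1 time of day, each mutant is represented by 1 allele, and a difference of developmental stage between groups of 1 age cannot be told apart from a difference of temperature or genotype.

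Light-harvesting proteins bind most of the chlorophyll of a leaf and pass the energy to the reaction centres of the photosystems. LHCB1, LHCB2 and LHCB3 (AT5G54270) form the trimers of the major antenna (LHCII), LHCB4, LHCB5 (AT4G10340) and LHCB6 (AT1G15820) link the trimers to the core of photosystem II, and LHCA proteins form the belt of photosystem I. The reaction centre proteins are made in the chloroplast, whereas the members described here are made from nuclear genes that are switched on as seedlings turn green in the light, under the control of phytochromes, PIF factors, the circadian clock and signals from the chloroplast.

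Several members are near-identical copies, which sets how far their values can be told apart. LHCB1.1 (chr1:10474656-10475969, minus strand), LHCB1.2 (chr1:10472280-10473502, minus strand) and LHCB1.3 (chr1:10477885-10479114, plus strand; all TAIR10.1 from RefSeq) lie side by side. Over the 804 coding bases LHCB1.1 (AT1G29920) and LHCB1.2 (AT1G29910) are 95.6% identical and encode proteins that are 100% identical. The stretch of 60 coding bases with the most differences among the 3 copies (bases 25 to 84 of the coding sequence, 5′ to 3′) is shown because reads over such differences are what separates the copies, and capitals mark the 8 positions at which the 3 are not all alike.
LHCB1.1: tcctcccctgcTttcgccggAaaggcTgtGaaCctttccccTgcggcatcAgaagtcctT
LHCB1.2: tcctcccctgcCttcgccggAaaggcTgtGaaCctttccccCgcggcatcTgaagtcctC
LHCB1.3: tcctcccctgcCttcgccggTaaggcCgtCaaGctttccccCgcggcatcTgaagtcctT
In all, 47 of the 804 coding positions differ among the 3, and the longest stretch without a difference has 62 bases. Of the windows of 50 bases (the read length) in each transcript, 79.5% in LHCB1.1, 89.4% in LHCB1.2 and 82.98% in LHCB1.3 (AT1G29930) occur nowhere else among the genes. The share is 86.3% in LHCB1.4 (AT2G34430), 82.7% in LHCB1.5 (AT2G34420), 77.3% in LHCB2.1 (AT2G05100), 71.8% in LHCB2.2 (AT2G05070) and 89.2% in LHCA2 (AT3G61470), and 100% in the other 34 members. Each of the 8 genes with shared windows was therefore measured mainly by its own bases, but a part of its reads may have been lost or placed on a copy. Genes on the opposite strand overlap 49.2% of the windows of PSAH1 (AT3G16140), 38.6% of LHCB2.3 (AT3G27690), 19.1% of PSAH2 (AT1G52230) and 11.5% of LHCB3, and no strand setting is given in the sources used here.

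Values are normalised counts, the deposited read counts divided by 1 size factor per library, and log2 differences are on the log2(normalised count + 1) scale. Calls rest on limma: a member counts as higher or lower if its p stays under 0.05 after Benjamini-Hochberg adjustment across the whole table of genes tested. Libraries held 21906850 to 67795235 reads in genes. HDA9 had 26.2 to 74.7 normalised counts in hda9-1 libraries against 395.3 to 576.4 in WT libraries. PIF4 at 2 days had 1674, 1419.6 and 2312 normalised counts at 27 °C and 803, 712 and 1042 at 22 °C where the label is pif4-2, against 1606, 1501 and 2505 at 27 °C and 410.4, 378 and 623 at 22 °C in WT, so the genotypes overlap at 27 °C and the mutant is higher at 22 °C. At 7 days PIF4 had 4748, 4993 and 4649 at 27 °C and 2041, 2111 and 2750.0 at 22 °C where the label is pif4-2, against 7767, 7939 and 8582 at 27 °C and 3525, 3686 and 3601 at 22 °C in WT, and the mutant is lower. A gene-level count does not check an insertion allele, so these libraries are named by their label. Some libraries stood apart. Replicate 3 of WT and of pif4-2 at 2 days had higher sums over the 42 members than its group mates at both temperatures, replicate 2 of both had the lowest sums at 27 °C, and replicate 3 of pif4-2 at 22 °C and 7 days summed to 3642927 against 6121219.5 and 6319515 in replicates 1 and 2. Counts of called members that rest on these libraries are given with and without them.

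**Figure D1:**
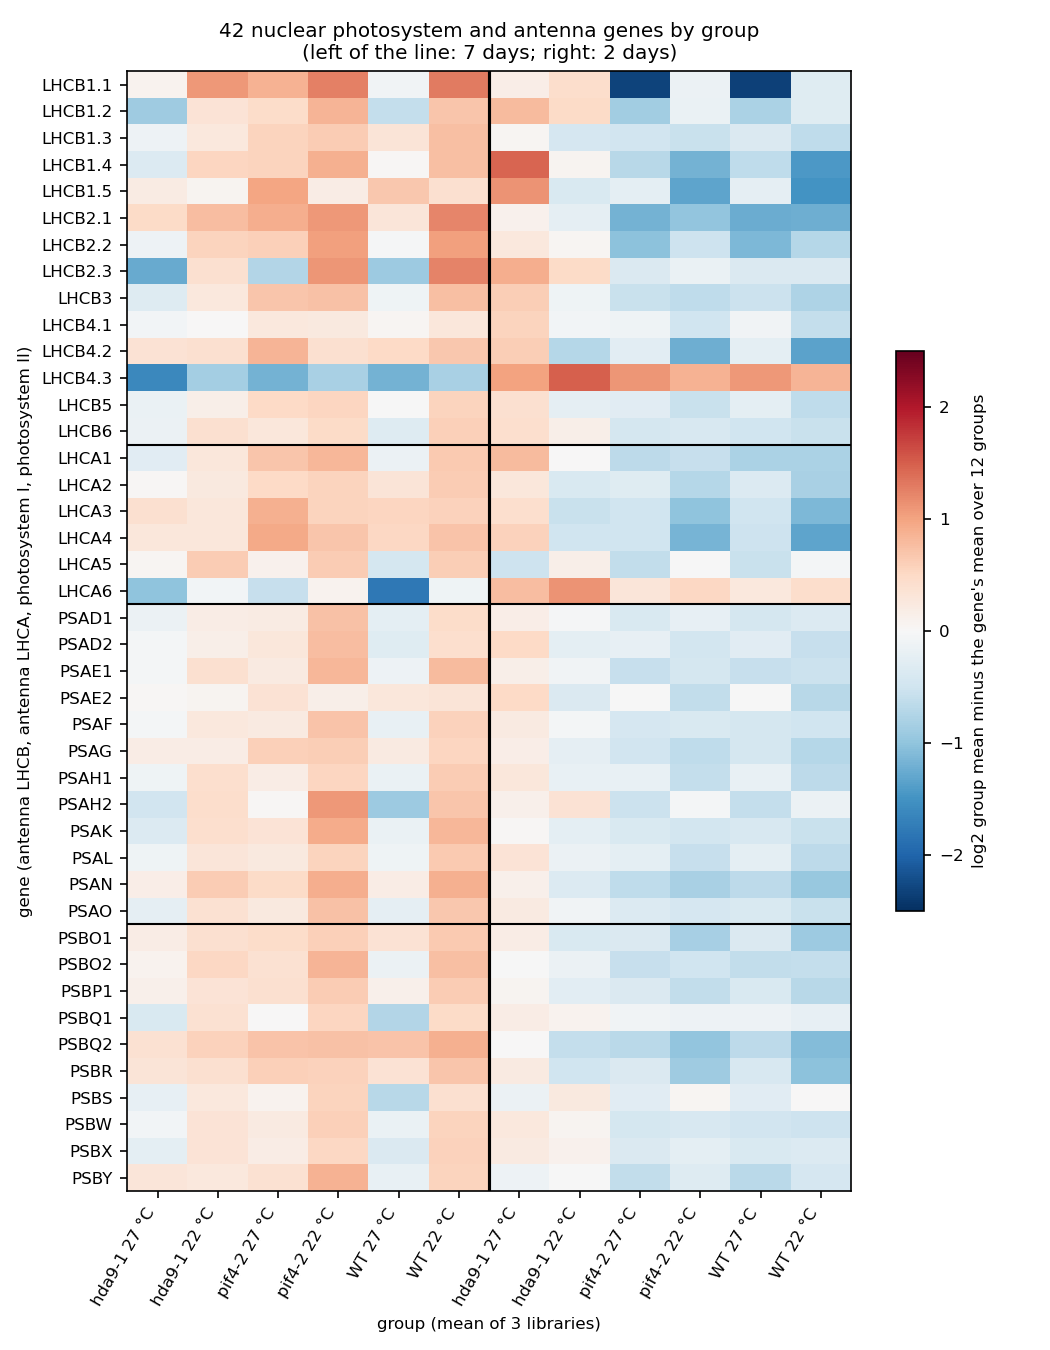
Mean level of each of the 42 members in each of the 12 groups (n = 3 libraries each), as the log2 difference from the member's own mean over all groups; columns run from 7 to 2 days, and within an age by temperature and genotype. LHCB1.1 is at its lowest in WT and pif4-2 at 27 °C and 2 days, and 33 members are at their highest in WT or pif4-2 at 22 °C and 7 days.

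Levels per kb of transcript spanned more than 3 orders of magnitude. Averaged over the 12 groups, LHCB1.3 was the most abundant with 469839 normalised counts per kb, followed by LHCB1.5 with 210126, the photosystem I antenna gene LHCA4 (AT3G47470) with 143042, LHCB1.1 with 137801 and PSBO1 (AT5G66570), the extrinsic protein that stabilises the manganese cluster of water oxidation, with 115208 per kb. At the low end stood LHCA6 (AT1G19150; 3843 per kb) and LHCA5 (AT1G45474; 3448), scarce antenna proteins that join photosystem I to the NADH dehydrogenase-like complex, and LHCB4.3 (AT2G40100; 249.8), a minor antenna gene. Between the lowest and the highest group mean, LHCB1.1 ranged 12.4-fold, the widest of the 42, and LHCB4.3 8.49-fold, while PSBX (AT2G06520) ranged 1.92-fold, the narrowest. The lowest group mean was that of WT at 2 days and 22 °C for 25 members and of WT at 2 days and 27 °C for 9. The highest was that of pif4-2 at 7 days and 22 °C for 18 and of WT at 7 days and 22 °C for 15, whereas 4 members peaked in hda9-1 at 2 days and 27 °C and 2 in hda9-1 at 2 days and 22 °C. The pif4-2 means include replicate 3, which stood apart, and the split of 18 and 15 was not taken without it. LHCB1.1, highest in WT by group mean, had 394116, 424132 and 190462 normalised counts in that pif4-2 group, against 345648, 355973 and 344955 in WT.

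The members took a large part of all reads in genes. At 7 days their share was 10.1, 9.36 and 9.29% in the 3 WT libraries at 27 °C, against 13.3, 13.1 and 13.3% at 22 °C, with no overlap. At 2 days it was 6.45, 5.05 and 7.78% in WT at 27 °C, against 5.01, 5.07 and 6.36% at 22 °C, and these groups overlap. In hda9-1 at 2 days the share was 9.95, 10.8 and 11.7% at 27 °C, against 6.599, 7.93 and 8.26% at 22 °C, all above the WT libraries of the same temperature. At 7 days the order of these genotypes was the other way, with 7.99, 8.61 and 7.61% at 27 °C and 10.7, 10.6 and 10.3% at 22 °C in hda9-1, all below the WT libraries of the same temperature. Libraries labelled pif4-2 had 12.4, 12.5 and 11.9% at 27 °C and 14.6, 15.02 and 9.69% at 22 °C at 7 days, and at 27 °C all 3 lie above the 3 WT libraries. The libraries are whole seedlings, so fewer green cells and less RNA per green cell cannot be told apart.

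**Figure D2:**
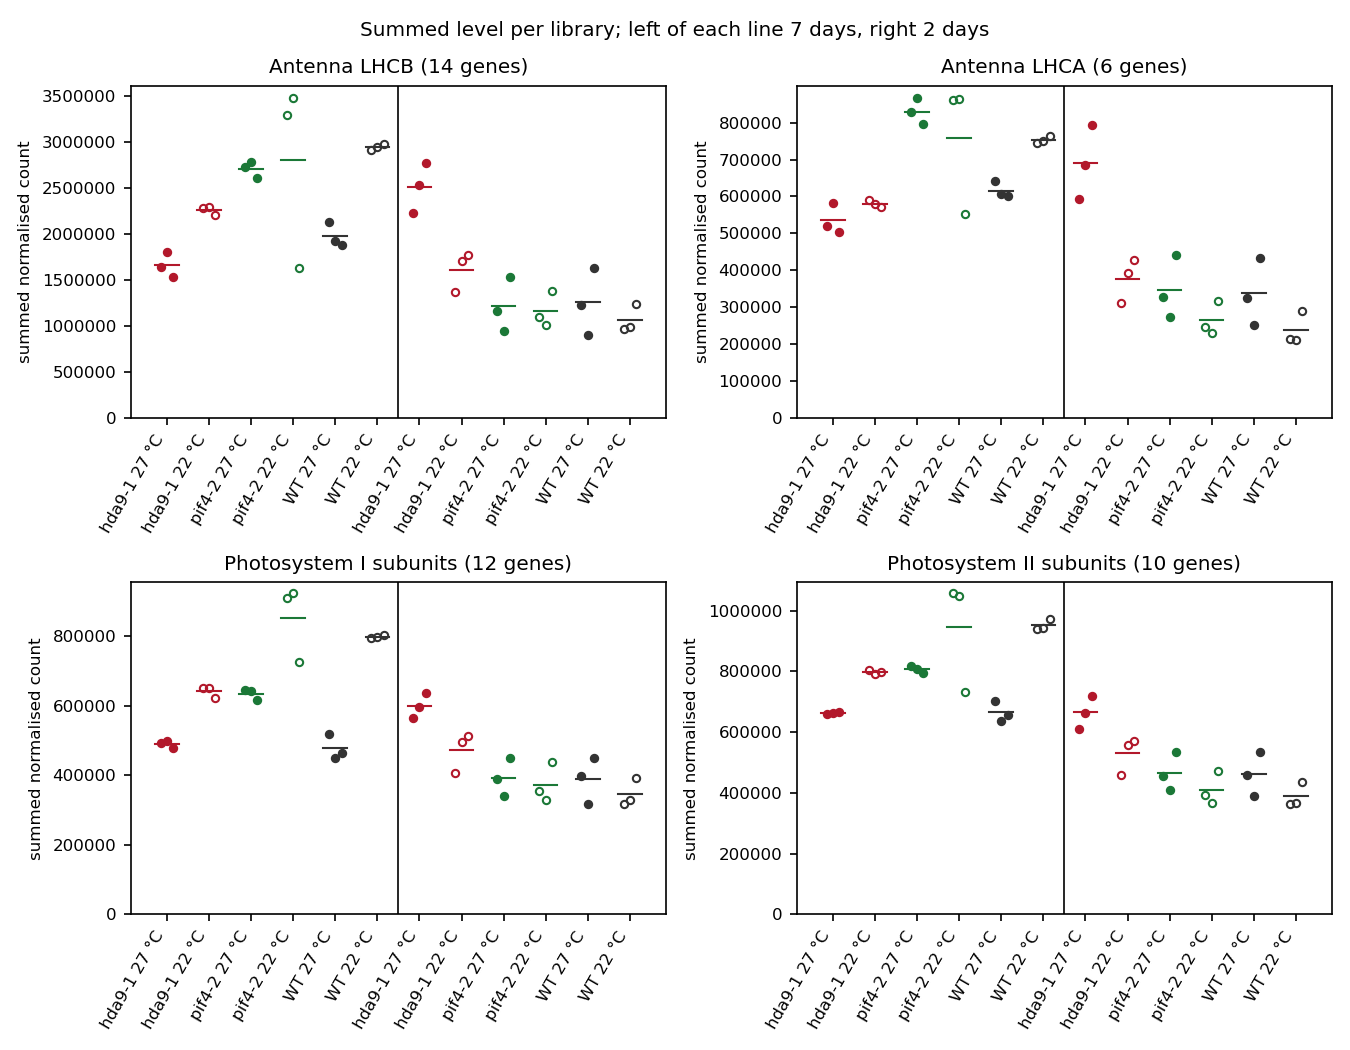
Summed level (normalised counts) of the LHCB, LHCA, PSA and PSB genes in each of the 36 libraries, by group; filled symbols are 27 °C and open symbols 22 °C, each point is 1 library and short lines are group means. In WT at 7 days the LHCB sum is 1878684 to 2134806 normalised counts at 27 °C, below the 2919289 to 2977963 at 22 °C, and in hda9-1 at 2 days and 27 °C it is 2230165 to 2768632, above the 905808 to 1630038 of WT.

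Seedlings aged 7 days were compared with seedlings aged 2 days at each temperature. In WT at 22 °C nearly the whole set was higher at 7 days: 40 members were called higher and 2 lower, with a median log2 difference of 1.32 (all genes: 76.4% of the 21879 genes tested, 38.1% higher and 38.3% lower, median -0.01). LHCB2.1, a major antenna gene, had 110468, 113938 and 118052 normalised counts in the 7-day libraries, against 18825, 17973 and 26349.7 in the 2-day libraries (log2 difference 2.46, SE 0.24, limma adjusted p = 1.34e-10). PSBQ2 (AT4G05180), an extrinsic subunit of the water-oxidising complex, had 83339, 85527 and 85068 at 7 days, against 18811, 20249.7 and 25633 at 2 days (log2 difference 1.99, SE 0.16, limma adjusted p = 3.59e-12). Both genes keep the ages far apart, and so do the photosystem I genes. PSAN (AT5G64040), a subunit on the lumen side where plastocyanin docks, had 73664, 75725 and 74114 at 7 days, against 18715, 18849 and 25110.1 at 2 days (log2 difference 1.85, SE 0.16, limma adjusted p = 1.47e-11). The smallest called rises in their subsets were those of PSBS (AT1G44575; 0.38), the sensor protein of photoprotective energy dissipation, PSAD1 (AT4G02770; 0.80), a ferredoxin-docking subunit, and LHCB4.1 (AT5G01530; 0.89).

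The 2 members that fell with age in WT at 22 °C were the scarce antenna genes LHCB4.3 and LHCA6. LHCB4.3 had 161, 134 and 139 normalised counts at 7 days, against 435, 468 and 473 at 2 days (log2 difference -1.66, SE 0.14, limma adjusted p = 3.92e-12). LHCA6 had 3771, 3522 and 3769.6 at 7 days, against 5105, 5097 and 5902 at 2 days (log2 difference -0.54, SE 0.13, limma adjusted p = 0.000402). At 22 °C these 2 were again the members that fell with age in hda9-1 and under the label pif4-2, where 24 and 40 members were higher (all genes called: 73% and 74.9%). For the label pif4-2, 41 to 42 members were called with any 1 library left out. LHCA6 had 5067, 4884 and 2728 there at 7 days, against 5411, 5308 and 6342 at 2 days. Much of its fall lies in replicate 3 at 7 days, which stood apart.

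At 27 °C the age difference was smaller in WT and turned round in hda9-1. In WT 22 members were higher and 6 lower at 7 days (median 0.40; all genes called: 70.8%), and without replicate 2 of WT at 2 days and 27 °C 21 were called in all. With the label pif4-2 38 were higher and 2 lower (median 0.80; all genes called: 71.1%). In hda9-1 3 were higher and 22 lower (median -0.35; all genes called: 69.9%). LHCB1.1 had 260817, 262153 and 250563 normalised counts at 7 days, against 26069, 12269 and 46312 at 2 days, in libraries labelled pif4-2 at 27 °C (log2 difference 3.39, SE 0.35, limma adjusted p = 5.95e-10). LHCB1.4 in hda9-1 at 27 °C had 52762, 73733 and 42563 at 7 days, against 154782, 193166 and 241492 at 2 days (log2 difference -1.82, SE 0.43, limma adjusted p = 0.000431). LHCB2.3 in the same groups had 10671, 12471 and 7716 at 7 days, against 41982, 45515 and 52704 at 2 days (log2 difference -2.21, SE 0.22, limma adjusted p = 5.39e-10). The ages do not overlap for any of these 3 genes. PSBQ1 (AT4G21280) and PSBQ2, copies of 1 extrinsic subunit, went opposite ways with age in WT at 27 °C, with log2 differences of -0.62 for PSBQ1 and 1.38 for PSBQ2.

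Warmth at 7 days was asked first of WT, where the set was lower at 27 °C: 32 members were called lower and 0 higher, with a median log2 difference of -0.76 (all genes: 57.4% of the 21320 genes tested, 26.3% higher and 31.1% lower, median -0.03). By role, 9 of 14 LHCB, 4 of 6 LHCA, 11 of 12 photosystem I and 8 of 10 photosystem II genes were lower. The size of the difference ranged widely within each subset. LHCB2.3, a copy of the mobile antenna protein LHCB2, had 15360.1, 12729 and 11628 normalised counts at 27 °C, against 57027, 59637 and 59997 at 22 °C (log2 difference -2.16, SE 0.14, limma adjusted p = 1.02e-09). LHCB1.1 had 155465, 123013 and 120004 at 27 °C, against 345648, 355973 and 344955 at 22 °C (log2 difference -1.40, SE 0.21, limma adjusted p = 1.54e-05). Each library at 27 °C lies far below each at 22 °C for both genes. The monomeric antenna gene LHCB5 had 161237, 136289.8 and 140546 at 27 °C, against 213132, 222208 and 217829.9 at 22 °C (log2 difference -0.58, SE 0.15, limma adjusted p = 0.00323), the smallest called difference among the LHCB genes.

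Not all major antenna genes passed the test. LHCB1.3, the most abundant member, had 728462, 684539.9 and 645144 normalised counts at 27 °C, against 920964, 913344 and 926796 at 22 °C (log2 difference -0.43, SE 0.20, limma adjusted p = 0.0849). LHCB1.5 had 322996, 300506 and 298643 at 27 °C, against 251337, 254989.9 and 252776 at 22 °C (log2 difference 0.28, SE 0.25, limma adjusted p = 0.358). The libraries of the 2 temperatures do not overlap for either gene, with LHCB1.5 above and LHCB1.3 below, but neither gene was called. With only the compared groups in the fit both were (limma adjusted p = 0.0116 for LHCB1.3 and 0.0207 for LHCB1.5), and LHCB1.3 was called lower by DESeq2 (adjusted p = 0.0376). Summed over LHCB1.1, LHCB1.2 and LHCB1.3, which is not affected by reads placed on the wrong one of these copies, the level was 956881, 873486 and 823336 at 27 °C and 1426677, 1421558 and 1438268 at 22 °C. Among the LHCA genes LHCA6 had 1257, 1093 and 1106 at 27 °C, against 3771, 3522 and 3769.6 at 22 °C (log2 difference -1.68, SE 0.15, limma adjusted p = 3.74e-08). The abundant LHCA4 and LHCA3 (AT1G61520) had log2 differences of -0.19 and -0.03 and were not called.

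In photosystem I the largest difference was that of PSAH2, a subunit at the docking site of mobile LHCII. PSAH2 had 15009, 11419 and 12316 normalised counts at 27 °C, against 38399, 40145 and 39657 at 22 °C (log2 difference -1.62, SE 0.08, limma adjusted p = 4.53e-11). PSAG (AT1G55670), which helps to bind the LHCA belt, had 79621, 66359 and 68238 at 27 °C, against 88021, 91283 and 85124 at 22 °C (log2 difference -0.31, SE 0.10, limma adjusted p = 0.0116), the smallest called difference. PSAE2 (AT2G20260), a copy of a stromal subunit near the ferredoxin site, was the 1 photosystem I gene not called (log2 difference -0.04, SE 0.13, limma adjusted p = 0.8). Among the called ones with middling differences, PSAL (AT4G12800), which lies beside PSAH, had 72219.9, 64136 and 65639 at 27 °C, against 113217, 112399 and 115051 at 22 °C. In photosystem II PSBQ1 had 27126, 23386 and 23508 at 27 °C, against 57241, 53995 and 60142 at 22 °C (log2 difference -1.21, SE 0.15, limma adjusted p = 1.39e-06). PSBO1 had 216106, 201602 and 210824 at 27 °C, against 252790.1, 257929.9 and 264464 at 22 °C (log2 difference -0.30, SE 0.10, limma adjusted p = 0.0157). Both are extrinsic proteins of water oxidation, and neither gene's temperatures overlap. The calls of PSAG and PSBO1 were lost under at least 1 alternative, and with any 1 library left out 30 to 32 members were called.

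In hda9-1 at 7 days warmth lowered 25 members and raised 0 (median -0.43; all genes: 57.9% of the 21320 genes tested, 27.5% higher and 30.4% lower). LHCB2.3 had 10671, 12471 and 7716 normalised counts at 27 °C, against 33054, 34295 and 31002 at 22 °C in hda9-1 (log2 difference -1.70, SE 0.14, limma adjusted p = 2.47e-08). PSAH2 had 17629, 17215 and 17144 at 27 °C, against 32336, 33674 and 32490.1 at 22 °C (log2 difference -0.92, SE 0.08, limma adjusted p = 5.19e-08). Both genes have every 27 °C library below every 22 °C library. Of the members in libraries labelled pif4-2, 19 were lower and 3 higher (median -0.27; all genes: 60.1% of the 21320 genes tested, 28.5% higher and 31.6% lower), and without replicate 3 at 22 °C 36 were lower and 2 higher. With only the compared groups in the fit 12 were lower and 0 higher. LHCB2.3 had 16065, 14071 and 14317 at 27 °C, against 56578, 60270.5 and 43587 at 22 °C in these libraries (log2 difference -1.84, SE 0.14, limma adjusted p = 8.21e-09). LHCB1.5 had 370762, 416243 and 365821 at 27 °C, against 265029, 292921 and 102880.0 at 22 °C (log2 difference 0.94, SE 0.25, limma adjusted p = 0.00365). Replicate 3 at 22 °C is far below its group mates, and the call of LHCB1.5 was lost under at least 1 alternative, as were those of LHCB4.2 (AT3G08940), LHCB2.2, LHCA3, PSAH1 and PSBP1 (AT1G06680). The 17 members lower at 27 °C in all 3 genotypes at 7 days were LHCB2.2, LHCB2.3, LHCA5, LHCA6, PSAD1, PSAD2 (AT1G03130), PSAE1 (AT4G28750), PSAF (AT1G31330), PSAH1, PSAH2, PSAK (AT1G30380), PSAN, PSAO (AT1G08380), PSBO2 (AT3G50820), PSBQ1, PSBS and PSBW (AT2G30570). Of all genes tested at 7 days, 22.4% were called lower and 19.6% higher in all 3 genotypes, against 17 and 0 of the 42 members.

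**Figure D3:**
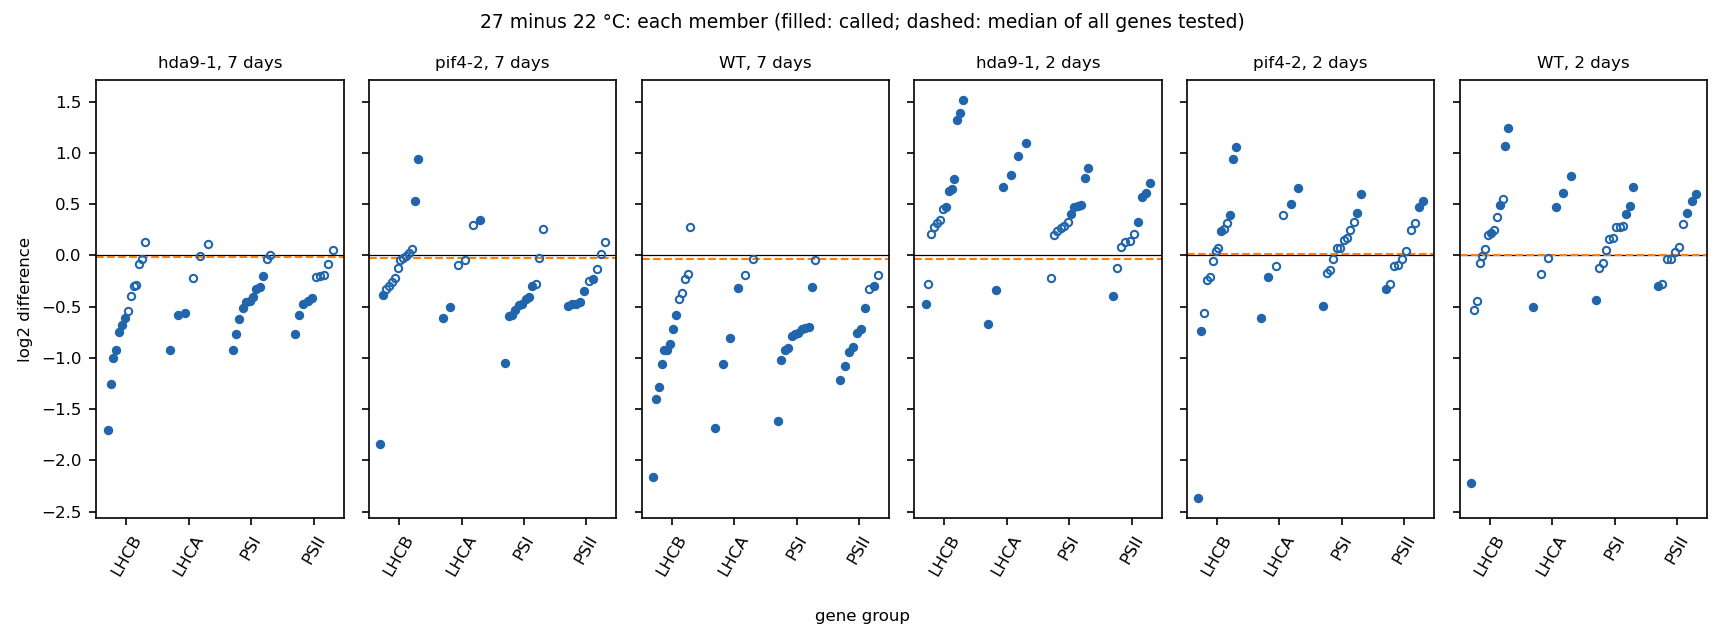
Log2 difference between 27 and 22 °C (limma, normalised count + 1) of each of the 42 members in each genotype at 7 and at 2 days. Filled symbols are members called at an adjusted p under 0.05, and the dashed line is the median of all genes tested. At 7 days the members lie below 0 in WT with few exceptions and at 2 days on both sides, with LHCB1.1 at -2.22 and LHCB1.5 at 1.24 in WT.

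At 2 days warmth moved members in both directions, and the largest differences were those of single antenna copies. In WT 13 members were called higher and 4 lower at 27 °C, with a median log2 difference of 0.18 (all genes: 72% of the 21164 genes tested, 36.5% higher and 35.5% lower, median 0.01). The called share of the members, 17 of 42, is below that of all genes. Without replicate 3 at 27 °C, one of the libraries that stood apart, 7 were higher and 8 lower, so the balance of directions rests on that library. LHCB1.1 had 27133, 11962 and 45061 normalised counts at 27 °C, against 101443, 102664 and 140702 at 22 °C (log2 difference -2.22, SE 0.42, limma adjusted p = 0.000168). LHCB1.5, on another chromosome, had 157163, 106455 and 235228 at 27 °C, against 57031, 60260.0 and 87321 at 22 °C (log2 difference 1.24, SE 0.29, limma adjusted p = 0.00118). Both genes encode LHCB1, and for neither do the temperatures overlap. The sum of LHCB1.1, LHCB1.2 and LHCB1.3 was 519836, 375592 and 634793 at 27 °C and 510704, 515651 and 615324 at 22 °C, and these do overlap. LHCB4.2, a copy of the linker antenna LHCB4, had 71462, 57742 and 103461 at 27 °C, against 32642, 33326 and 43023 at 22 °C (log2 difference 1.06, SE 0.21, limma adjusted p = 0.000221).

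Other members of WT at 2 days moved by less than 1 on the log2 scale. PSAE2 had 14855, 12528 and 18284 normalised counts at 27 °C, against 8894, 8856 and 10871 at 22 °C (log2 difference 0.66, SE 0.15, limma adjusted p = 0.000705), whereas its copy PSAE1 had 24634, 17152 and 27668 at 27 °C, against 22409, 22983 and 26316 at 22 °C (log2 difference -0.07, SE 0.17, limma adjusted p = 0.711). The copies of PSAH went opposite ways. PSAH1 had 14737, 12816 and 16851 at 27 °C, against 9446, 9953 and 12368 at 22 °C (log2 difference 0.48, SE 0.13, limma adjusted p = 0.0034). PSAH2 had 17567, 13795 and 17129 at 27 °C, against 19813, 21023 and 24665 at 22 °C (log2 difference -0.44, SE 0.12, limma adjusted p = 0.00325). Neither PSAH gene overlaps between the temperatures, although the reads of both can include those of a gene on the other strand. In photosystem II PSBR (AT1G79040), a small protein that helps to hold the extrinsic subunits, was higher (log2 difference 0.60, SE 0.17, limma adjusted p = 0.00539) and PSBS was lower (log2 difference -0.30, SE 0.08, limma adjusted p = 0.00219). The scarce LHCA5 had 2170.5, 2146 and 2262 at 27 °C, against 2969.5, 3023 and 3329.7 at 22 °C (log2 difference -0.50, SE 0.07, limma adjusted p = 1.12e-05). The calls of LHCB4.3, LHCA4, LHCA2 and PSBQ2 were lost under at least 1 alternative.

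The mutants at 2 days shared part of this pattern. In hda9-1 21 members were higher and 4 lower at 27 °C (median 0.37; all genes: 66.8% of the 21164 genes tested, 31.8% higher and 35% lower). LHCB1.5 had 371791, 431207 and 457089.5 normalised counts at 27 °C, against 114303, 152841 and 179209 at 22 °C in hda9-1 (log2 difference 1.52, SE 0.29, limma adjusted p = 0.000244). LHCB1.1 had 135661, 157174 and 180172 at 27 °C, against 163757, 202544 and 208025 at 22 °C (log2 difference -0.28, SE 0.42, limma adjusted p = 0.565). The temperatures are apart for LHCB1.5 and overlap for LHCB1.1. Where the label is pif4-2, 10 members were higher and 6 lower (median 0.07; all genes: 70.2% of the 21164 genes tested, 35.8% higher and 34.4% lower), and LHCB1.1 had 26069, 12269 and 46312 at 27 °C, against 119876, 110174 and 154202 at 22 °C (log2 difference -2.37, SE 0.42, limma adjusted p = 9.44e-05). Without replicate 3 at 27 °C 3 were higher and 7 lower there. Called higher in all 3 genotypes at 2 days were 9 members (LHCB1.5, LHCB4.1, LHCB4.2, LHCA3, LHCA4, PSAE2, PSAH1, PSBO1 and PSBR), and called lower in all 3 were LHCA5 and PSBS. Of all genes tested, 27% were called higher and 28% lower in all 3 genotypes, so both shares of the members, 9 and 2 of 42, are below those of all genes.

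Because copies of 1 protein moved apart, their levels per kb were set against each other within each library, where the library's depth drops out. The ratio of LHCB1.5 to LHCB1.1 in WT at 2 days was 7.28, 11.2 and 6.56 at 27 °C, against 0.707, 0.738 and 0.7804 at 22 °C. At 7 days it was 2.61, 3.07 and 3.13 at 27 °C, against 0.914, 0.901 and 0.921 at 22 °C. In hda9-1 at 2 days it was 3.45, 3.45 and 3.19 at 27 °C, against 0.878, 0.949 and 1.08 at 22 °C. In each of these 27 °C libraries the ratio was above that of every 22 °C library, and in hda9-1 at 2 days and 27 °C it was below that of WT. The ratio of LHCB2.3 to LHCB2.1 in WT at 7 days was 0.212, 0.229 and 0.189 at 27 °C, against 0.495, 0.502 and 0.488 at 22 °C. The ratio of PSAH2 to PSAH1 in WT at 7 days was 1.76, 1.48 and 1.53 at 27 °C, against 2.801, 2.84 and 2.85 at 22 °C, and that of PSBQ2 to PSBQ1 was 2.48, 2.700 and 2.599 at 27 °C, against 1.25, 1.36 and 1.22 at 22 °C. These 3 pairs also keep the temperatures apart at that age. Not every pair does: in WT at 7 days the ratios of LHCB4.2 to LHCB4.1 and of PSAD2 to PSAD1 overlap between the temperatures. That of LHCB2.3 to LHCB2.1 overlaps in WT at 2 days, with 0.802 to 0.993 at 27 °C and 0.816 to 0.935 at 22 °C. Such a ratio shows an unequal change of the copies, not which of them changed, and is given as a description, with no test.

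**Figure D4:**
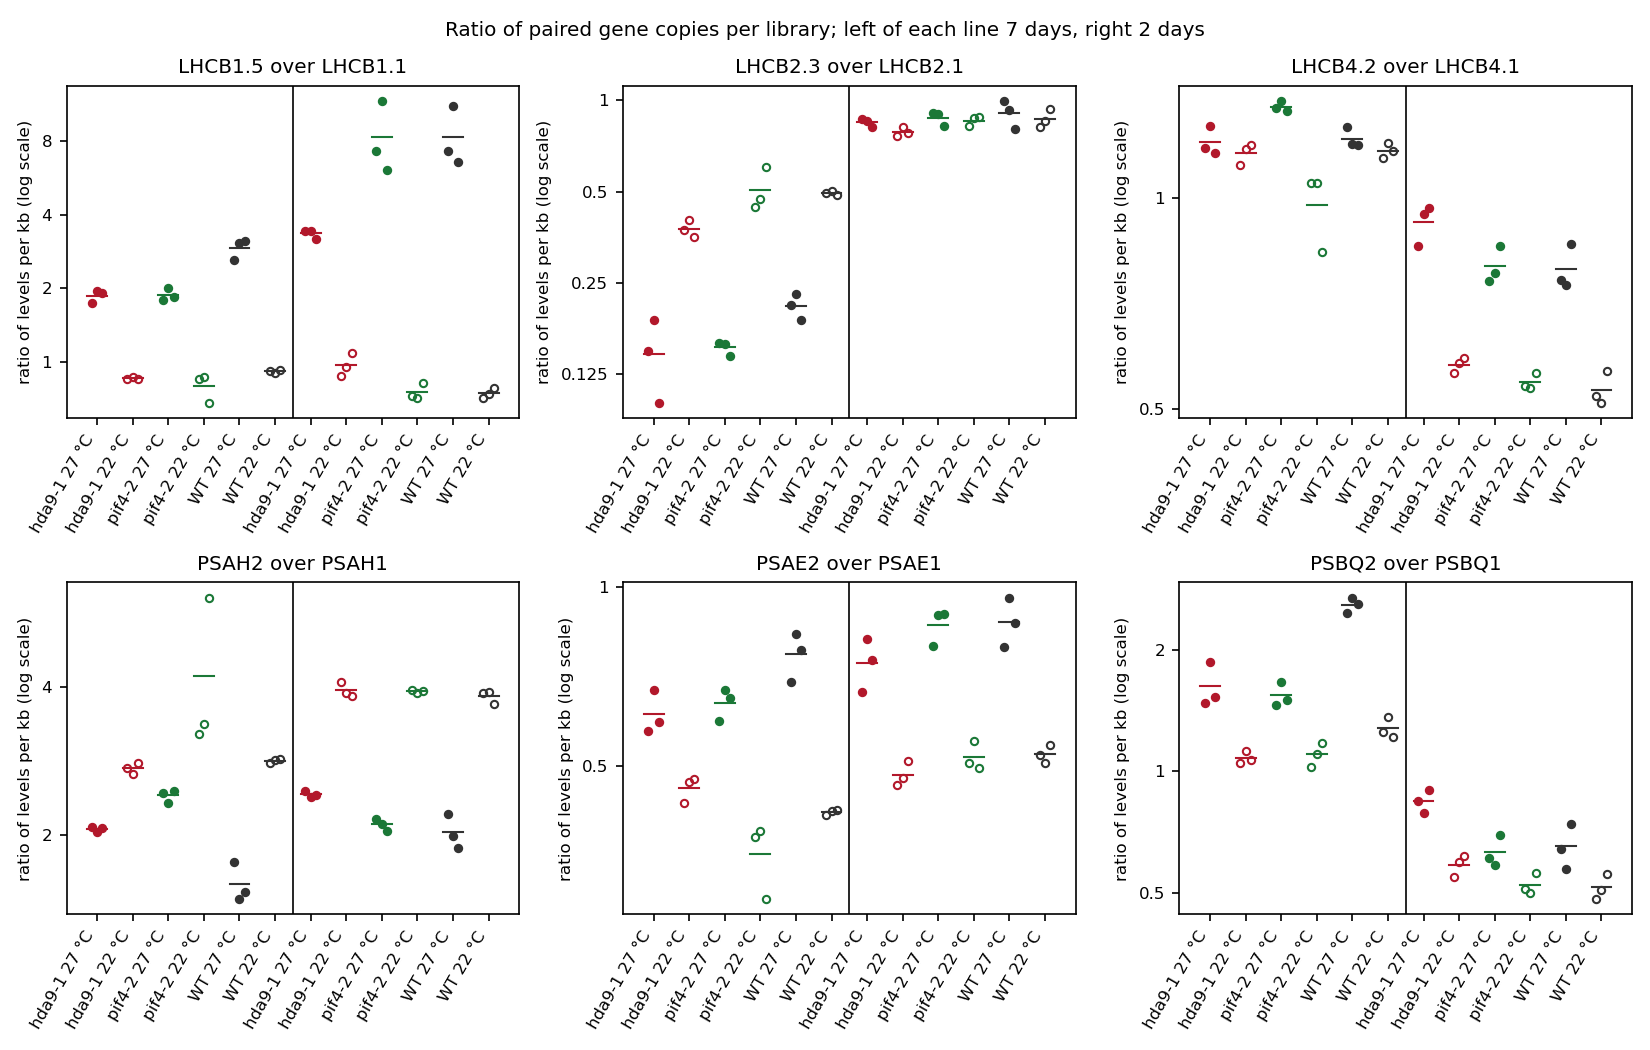
Ratio of the levels per kb of 2 copies of 1 protein in each of the 36 libraries, on a log axis, by group; filled symbols are 27 °C and open symbols 22 °C, and short lines are group means. The ratio of LHCB1.5 to LHCB1.1 is 6.56 to 11.2 in WT at 27 °C and 2 days, against 0.707 to 0.780 at 22 °C.

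The sequence upstream of the copies that moved apart is shown for the genes with the widest responses, from 250 bases before to 30 after the annotated start, 5′ to 3′ in the direction of the gene (TAIR10.1, RefSeq gene models). Capitals mark matches on either strand of CACGTG, the G-box bound by PIF and bZIP factors, GATAAG, the I-box of GATA factors, AAAATATCT, the evening element of clock factors, and CCAAT, the site of NF-Y factors. The windows are chr1:10475940-10476219 on the minus strand for LHCB1.1, chr2:14523539-14523818 on the minus strand for LHCB1.5, chr3:10255656-10255935 on the plus strand for LHCB2.3 and chr1:19454548-19454827 on the plus strand for PSAH2.
LHCB1.1: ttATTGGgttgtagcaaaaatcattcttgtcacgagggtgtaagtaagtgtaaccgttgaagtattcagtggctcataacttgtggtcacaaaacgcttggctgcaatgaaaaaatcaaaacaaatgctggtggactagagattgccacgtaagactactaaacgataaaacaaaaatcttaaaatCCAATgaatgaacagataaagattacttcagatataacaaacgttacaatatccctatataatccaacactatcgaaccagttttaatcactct
LHCB1.5: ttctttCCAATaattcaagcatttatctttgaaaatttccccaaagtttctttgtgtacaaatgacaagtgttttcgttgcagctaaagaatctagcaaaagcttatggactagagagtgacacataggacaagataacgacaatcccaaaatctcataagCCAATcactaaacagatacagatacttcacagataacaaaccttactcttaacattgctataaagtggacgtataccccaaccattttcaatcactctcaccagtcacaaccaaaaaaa
LHCB2.3: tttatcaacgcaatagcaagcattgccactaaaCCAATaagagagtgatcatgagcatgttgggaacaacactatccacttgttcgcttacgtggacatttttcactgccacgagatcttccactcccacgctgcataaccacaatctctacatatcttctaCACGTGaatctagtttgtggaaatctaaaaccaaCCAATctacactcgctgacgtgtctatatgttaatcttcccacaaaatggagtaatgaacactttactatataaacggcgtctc
PSAH2: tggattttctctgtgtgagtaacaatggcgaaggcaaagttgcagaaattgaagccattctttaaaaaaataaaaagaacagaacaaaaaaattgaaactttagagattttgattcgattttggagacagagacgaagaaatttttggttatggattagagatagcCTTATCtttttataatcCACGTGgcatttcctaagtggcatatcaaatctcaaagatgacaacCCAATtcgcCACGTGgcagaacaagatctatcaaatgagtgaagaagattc
LHCB1.1 and LHCB1.5, which moved opposite ways with warmth in WT at 2 days, each hold 2 CCAAT matches and none of the other 3 motifs. LHCB2.3 holds 1 G-box and 2 CCAAT matches, and PSAH2 holds 2 G-boxes, 1 GATAAG and 1 CCAAT. The windows of their copies are not shown. LHCB2.1 holds 0 G-boxes, 1 GATAAG and 3 CCAAT matches. PSAH1, which moved opposite to PSAH2 in WT at 2 days, holds 1 G-box, 1 GATAAG and 1 CCAAT. Over the set, 12 of 42 windows (28.6%) hold CACGTG, against 7.24% of the windows of 27443 protein-coding genes. GATAAG is in 15 windows (35.7%, against 13.8%), of which 8 belong to the 12 photosystem I genes. CCAAT is in 30 windows (71.4%, against 49.7%), in all 14 LHCB genes and in 3 of the 10 photosystem II genes. AAAATATCT is in 1 window (2.38%, against 2.66%), that of LHCA5. The letters match motifs that other genes also hold, and a match is no measured binding site.

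The warmth responses at the 2 ages were also compared in 1 model, by subtracting the response at 2 days from that at 7 days. In WT the response was lower at 7 days for 36 members and higher for 0 (median -0.85; all genes called: 47.4%), in hda9-1 for 35 and 0 (median -0.84; all genes called: 37.2%). It was lower in libraries labelled pif4-2 for 13 and higher for 1 (median -0.36; all genes called: 46.4%), or lower for 25 and higher for 1 without replicate 3 at 22 °C and 7 days. The count of 14 was 9 without replicate 1 at 22 °C and 2 days, 8 without replicate 1 or 2 at 22 °C and 7 days, and 7 without replicate 2 at 22 °C or 3 at 27 °C at 2 days, and 6 with only the compared groups in the fit. LHCB2.3 had the largest such difference in WT (log2 difference -2.15, SE 0.32, limma adjusted p = 2.74e-06), followed by LHCA6 (log2 difference -1.50, SE 0.18, limma adjusted p = 1.25e-07). The 1 member with a higher response at 7 days in libraries labelled pif4-2 was LHCB1.1 (log2 difference 2.07, SE 0.49, limma adjusted p = 0.00103), the gene that was lowest there at 27 °C and 2 days. LHCB1.4 had the largest difference in hda9-1 (log2 difference -2.32, SE 0.61, limma adjusted p = 0.00344).

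The effect of the hda9-1 mutation was asked by setting it against WT. At 2 days the members were higher in hda9-1: 38 of 42 at 27 °C (median 0.66; all genes: 29.4% of the 21164 genes tested, 14.4% higher and 15% lower) and 33 at 22 °C (median 0.51; all genes: 45.7% of the 21164 genes tested, 24.8% higher and 20.9% lower), with 0 lower at either temperature. LHCB1.1 at 27 °C had 135661, 157174 and 180172 normalised counts in hda9-1, against 27133, 11962 and 45061 in WT (log2 difference 2.68, SE 0.42, limma adjusted p = 0.000319). LHCB1.4 at 27 °C had 154782, 193166 and 241492 in hda9-1, against 33343, 16762 and 87879 in WT (log2 difference 2.40, SE 0.52, limma adjusted p = 0.00323). LHCA1 (AT3G54890), an antenna protein of the photosystem I belt, had 137257, 156322 and 189630.2 in hda9-1, against 53049, 37424 and 70869 in WT (log2 difference 1.62, SE 0.25, limma adjusted p = 0.000335). For each of these 3 antenna genes the lowest hda9-1 library lies above the highest WT library, though the WT libraries of LHCB1.1 and LHCB1.4 differ widely among themselves. Subunit genes of both photosystems were higher as well. PSAD2 had 32220.2, 36510.4 and 39114 in hda9-1, against 20523, 17672 and 24492 in WT (log2 difference 0.79, SE 0.14, limma adjusted p = 0.000863). PSBW, a small protein that stabilises photosystem II supercomplexes, had 43423, 47353 and 51853 in hda9-1, against 29058, 23367 and 32623 in WT (log2 difference 0.76, SE 0.15, limma adjusted p = 0.00179). At 27 °C the median log2 difference was 1.26 over the LHCB, 0.77 over the LHCA, 0.63 over the photosystem I and 0.58 over the photosystem II genes.

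The count at 22 °C and 2 days rests on single libraries. It was 11 without hda9-1 replicate 2 and 10 without hda9-1 replicate 3. It was 9 without WT replicate 1, 10 without WT replicate 2 and 39 without WT replicate 3, and 41 with replicate 3 of WT and pif4-2 at 2 days left out. Of the members named at 22 °C only PSBW (log2 difference 0.58, SE 0.15, limma adjusted p = 0.00576) kept its call under each alternative. LHCB1.4, with 55372, 75502 and 95464 normalised counts in hda9-1, against 19445, 20476 and 39388 in WT, had the largest difference (log2 difference 1.56, SE 0.52, limma adjusted p = 0.0231) and lost it. At 27 °C the lowest count over single libraries left out was 25, without WT replicate 2, and there LHCB5 and PSBQ1 lost their calls under at least 1 alternative.

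At 7 days fewer members differed in hda9-1. At 27 °C 7 members were higher and 2 lower than in WT (median -0.02; all genes: 34.3% of the 21320 genes tested, 18.4% higher and 15.9% lower), shares near or below those of all genes, and with only the compared groups in the fit 8 were higher and 6 lower. At 22 °C 0 were higher and 12 lower (median -0.29; all genes: 20% of the 21320 genes tested, 9.84% higher and 10.2% lower), 7 of them photosystem I genes. LHCA6 at 27 °C had 2063, 2005 and 1886 normalised counts in hda9-1, against 1257, 1093 and 1106 in WT (log2 difference 0.79, SE 0.15, limma adjusted p = 0.000564). PSBY (AT1G67740), a small subunit of photosystem II, had 43519, 37735 and 43067 at 27 °C in hda9-1, against 31357, 27396 and 29354 in WT (log2 difference 0.50, SE 0.08, limma adjusted p = 0.000136). Both genes are above WT in every library. PSBY at 22 °C had 44190.0, 37515 and 38608 in hda9-1, against 48481, 51061 and 49451 in WT (log2 difference -0.31, SE 0.08, limma adjusted p = 0.011), with every hda9-1 library below WT. LHCB2.3 at 22 °C had 33054, 34295 and 31002 in hda9-1, against 57027, 59637 and 59997 in WT (log2 difference -0.85, SE 0.14, limma adjusted p = 0.000525). The groups do not overlap, and LHCA2 (log2 difference -0.39, SE 0.09, limma adjusted p = 0.00676) and PSAK (log2 difference -0.41, SE 0.10, limma adjusted p = 0.00532), which lies at the LHCA side of photosystem I, were lower as well. The calls of LHCB2.2, PSAH2, PSBY and PSBP1 at 22 °C and of LHCB2.3, LHCA2 and PSBO2 at 27 °C were lost under at least 1 alternative. With only the compared groups in the fit, 38 members were called at 22 °C, all lower, with DESeq2 21, and without hda9-1 replicate 3 at 22 °C 7. The 20% of all genes belongs to the main fit, and the shares under these alternatives are not given here.

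The effect of the pif4-2 mutation was asked by setting the libraries with that label against WT. At 2 days limma called 0 members at 27 °C and 0 at 22 °C (all genes called: 0.184% and 0.184%), and at each temperature 0 members had an unadjusted p under 0.05, and edgeR and DESeq2 called 0. These tests did not pair the libraries, although the replicate numbers pair here, and with the number as a block 0 members were called too. At 27 °C the libraries of the 2 genotypes follow each other closely. LHCB1.1 there had 26069, 12269 and 46312 normalised counts in libraries labelled pif4-2 and 27133, 11962 and 45061 in WT. At 22 °C the sum over all members was 2086091, 1932088 and 2603018 under the label pif4-2, against 1859963, 1892196 and 2354378 in WT. Each of these sums lies above that of the WT library of the same number.

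At 7 days and 27 °C the called members were all higher in the libraries labelled pif4-2. There 26 members were called higher and 0 lower (median 0.44; all genes: 24.8% of the 21320 genes tested, 13.1% higher and 11.7% lower), namely 6 of 14 LHCB, 4 of 6 LHCA, 9 of 12 photosystem I and 7 of 10 photosystem II genes. LHCA6 had 2761, 2656 and 2583 normalised counts in libraries labelled pif4-2, against 1257, 1093 and 1106 in WT (log2 difference 1.21, SE 0.15, limma adjusted p = 1.04e-05). LHCB1.2 had 141694, 143677 and 124834 in libraries labelled pif4-2, against 72954, 65934 and 58188 in WT (log2 difference 1.06, SE 0.24, limma adjusted p = 0.0034). PSAH2 had 25685, 24278 and 24550.0 in libraries labelled pif4-2, against 15009, 11419 and 12316 in WT (log2 difference 0.95, SE 0.08, limma adjusted p = 2.16e-07). For all 3 genes every library labelled pif4-2 lies above every WT library. PSBS had 38889, 36030.5 and 38078 in libraries labelled pif4-2, against 24403, 20059 and 22081 in WT (log2 difference 0.77, SE 0.10, limma adjusted p = 2.81e-05). With any 1 library left out 18 to 24 members were called at 27 °C. The calls of LHCB5, LHCA4, PSAH1 and PSBP1 there were lost under at least 1 alternative. At 22 °C 4 members were called higher, PSAD1, PSAD2, PSAH2 and PSBY, and 0 lower (all genes: 17.7% of the 21320 genes tested, 7.95% higher and 9.7% lower), a share near that of all genes called higher. Without replicate 3 of the group at 22 °C 16 were higher and 0 lower, and with only the compared groups in the fit 0 were called. PSAD2 at 22 °C had 42639, 41971 and 44889 in libraries labelled pif4-2, against 34179, 33390.3 and 34502 in WT (log2 difference 0.34, SE 0.06, limma adjusted p = 0.000489). All 3 libraries, replicate 3 included, lie above WT for this gene.

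**Figure D5:**
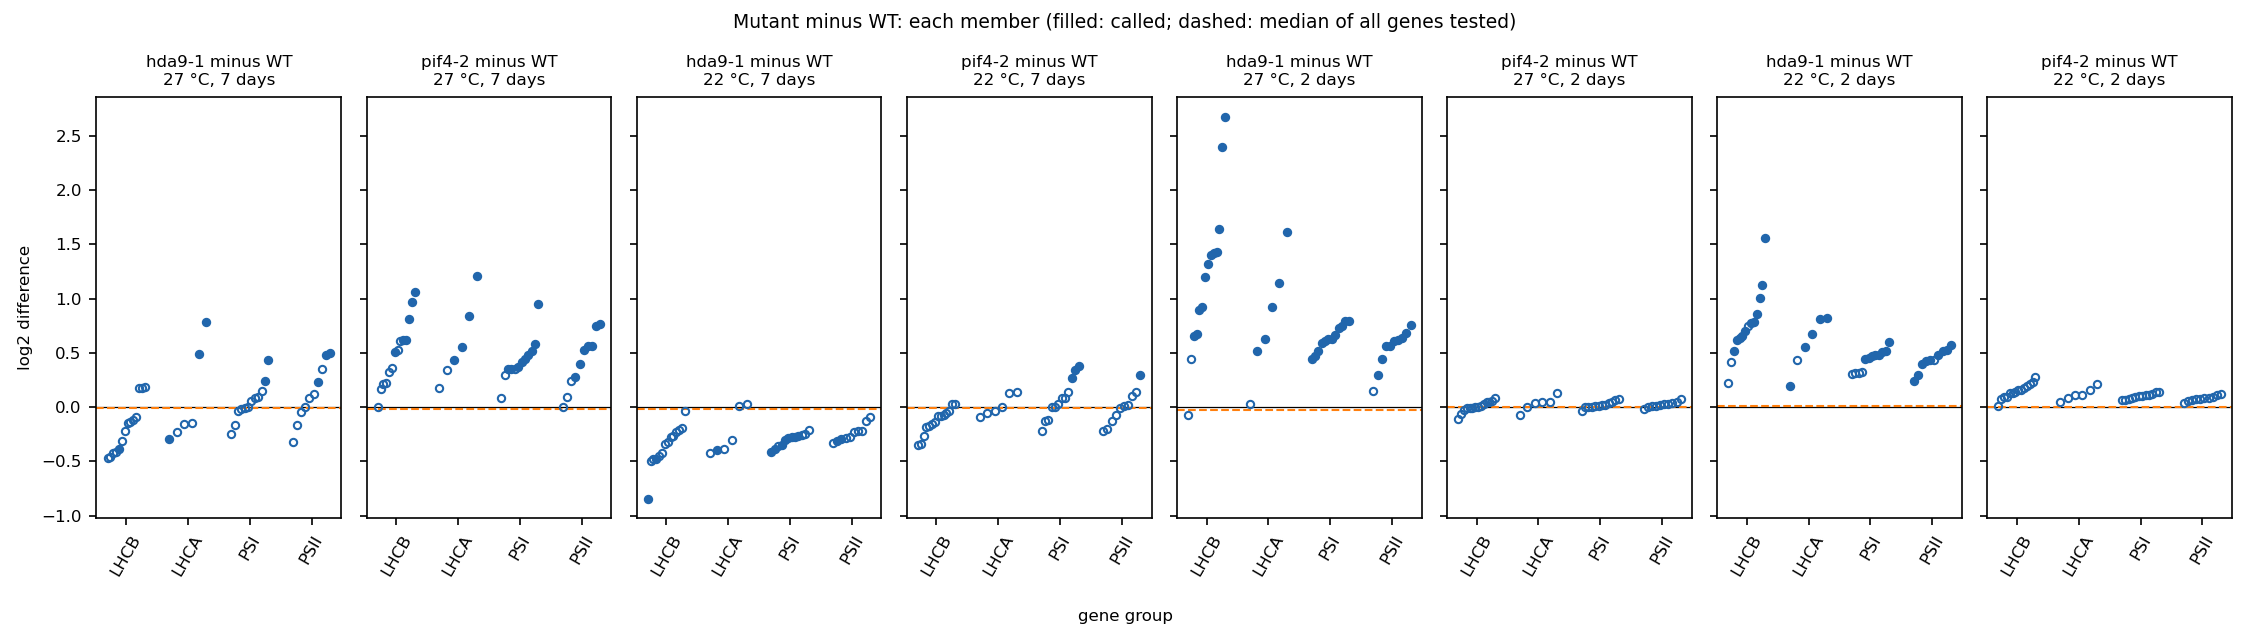
Log2 difference of hda9-1 and of pif4-2 libraries from WT (limma, normalised count + 1) of each of the 42 members at 27 and 22 °C, at 7 and at 2 days. Filled symbols are members called at an adjusted p under 0.05, and the dashed line is the median of all genes tested. In hda9-1 at 2 days 38 members at 27 °C and 33 at 22 °C are called, all higher, and in pif4-2 libraries at 2 days 0 are.

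Differences of the warmth response from WT were tested as an interaction. At 7 days the response was higher than in WT for 7 members in hda9-1 and lower for 0 (all genes called: 3.53%), and higher for 3 and lower for 0 in libraries labelled pif4-2 (all genes called: 2.1%). In hda9-1 they were PSAD1, PSAD2, PSAF, PSAH2, PSBO2, PSBS and PSBY, all subunit genes. The antenna gene LHCA6 was not called, although in hda9-1 it had 2063, 2005 and 1886 normalised counts at 27 °C, against 3913, 3672 and 3731 at 22 °C. In WT it had 1257, 1093 and 1106 at 27 °C, against 3771, 3522 and 3769.6 at 22 °C. The calls therefore do not set antenna genes apart from subunits. Of the 7 called, the largest was that of PSBY (log2 difference 0.81, SE 0.11, limma adjusted p = 0.00123), followed by PSAH2 (log2 difference 0.70, SE 0.12, limma adjusted p = 0.00366). The 3 in libraries labelled pif4-2 were LHCA6 (log2 difference 1.07, SE 0.21, limma adjusted p = 0.0126), PSAH2 (log2 difference 0.57, SE 0.12, limma adjusted p = 0.0159) and PSBS (log2 difference 0.62, SE 0.15, limma adjusted p = 0.0328), and without replicate 3 at 22 °C 15 members were called, all higher. The count of 7 in hda9-1 became 4 without WT replicate 1 at 22 °C and 3 without any other library of those genotypes at 22 °C, WT replicate 2 or 3 at 27 °C or hda9-1 replicate 1 or 3 at 27 °C. That of 3 for the label pif4-2 became 10 without its replicate 1 or 2 at 22 °C and 1 without its replicate 1 at 27 °C. With only the compared groups in the fit the count in hda9-1 was 19, and with no filter on low values 4. For the label pif4-2 the compared groups alone gave 0 (limma adjusted p = 0.0654 for LHCA6, 0.0773 for PSAH2 and 0.109 for PSBS), and DESeq2 called 14. Both mutants share the WT libraries. PSAH2 fell by 1.62 on the log2 scale in warm WT, against log2 differences of -0.92 in hda9-1 and -1.05 in libraries labelled pif4-2. At 2 days the response of hda9-1 was lower than in WT for 1 member, LHCB4.3 (log2 difference -0.69, SE 0.13, limma adjusted p = 0.0163), and higher for 0 (all genes called: 2.71%), while 5 members had an unadjusted p under 0.05. That call was lost without WT replicate 1 or hda9-1 replicate 2 or 3 at 22 °C, and 2 members were called without WT replicate 3 at 27 °C. LHCB4.3 had 508, 511 and 506 normalised counts at 27 °C, against 617, 750.2 and 759.9 at 22 °C, in hda9-1 and 556, 534 and 513 at 27 °C, against 435, 468 and 473 at 22 °C, in WT. Its temperatures lie apart in opposite directions in the 2 genotypes. For the libraries labelled pif4-2 at 2 days limma called 0 members and 0% of all genes, 0 members had an unadjusted p under 0.05, and edgeR and DESeq2 called 0.

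The subsets were set side by side as sums within each library. The ratio of antenna to subunit transcripts (LHCA and LHCB over PSA and PSB, summed normalised counts) in WT at 7 days was 2.28, 2.33 and 2.21 at 27 °C, against 2.11, 2.12 and 2.105 at 22 °C, with no overlap. The 2 photosystems went opposite ways in this ratio. LHCA over photosystem I was 1.24, 1.35 and 1.295 at 27 °C, against 0.937, 0.941 and 0.951 at 22 °C, whereas LHCB over photosystem II was 3.04, 3.03 and 2.86 at 27 °C, against 3.11, 3.12 and 3.06 at 22 °C, and neither overlaps. As means of log2 values the warmth differences of the 4 subsets lay between -0.77 and -0.68. The photosystem I sum in those libraries was 517676, 449943 and 463211 at 27 °C, against 794258, 795773 and 803627 at 22 °C, and the photosystem II sum 702022, 636892 and 656697 at 27 °C, against 939513, 943839.7 and 974106 at 22 °C. In hda9-1 at 2 days and 27 °C the antenna ratio was 2.400, 2.56 and 2.63, against 1.81, 1.64 and 2.096 in WT. The hda9-1 libraries all lie above WT there, and at 7 days and 27 °C they lie below it, with 1.88, 2.05 and 1.78 in hda9-1, against 2.28, 2.33 and 2.21 in WT. In libraries labelled pif4-2 at 7 days and 27 °C the ratio was 2.43, 2.51 and 2.42, above each WT library. A sum gives more weight to abundant genes, such as LHCB1.3 among the LHCB and LHCA4 among the LHCA genes, so the sum and the mean over genes can differ. In WT at 7 days the warmth difference of the LHCB genes was -0.77 as a mean of log2 values but -0.58 as the log2 ratio of sums. For the LHCA genes these values were -0.68 and -0.29.

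Other nuclear genes of the thylakoid membrane were lower in warm WT at 7 days as well, where 31.1% of all genes were called lower and 26.3% higher. Of 14 genes for electron transport and ATP synthase 11 were lower and 1 higher (median -0.93), with the ATP synthase subunit ATPD showing the largest fall (log2 difference -1.67, SE 0.10, limma adjusted p = 1.72e-10). ATPD had 11677, 9738 and 10781 normalised counts at 27 °C, against 34426, 32689.7 and 35284 at 22 °C. The 1 that rose was PGRL1B, a protein of cyclic electron flow (log2 difference 0.56, SE 0.09, limma adjusted p = 2.52e-05). All 7 relatives of the antenna proteins were lower, the early light-induced protein gene ELIP2 most (log2 difference -2.47, SE 0.28, limma adjusted p = 7.03e-07). Of 7 photosystem assembly genes 6 were lower and 0 higher, PSB28 most (log2 difference -2.31, SE 0.12, limma adjusted p = 5.63e-11), and of 7 genes for the insertion and phosphorylation of antenna proteins 4 were lower, with STN7, the kinase that phosphorylates LHCII, the largest (log2 difference -1.04, SE 0.08, limma adjusted p = 3.5e-09). Of 11 regulators 7 were lower and 2 higher. GUN4, which activates the magnesium chelatase of chlorophyll synthesis, was the largest fall (log2 difference -1.48, SE 0.15, limma adjusted p = 2.49e-07) and PIF4 the largest rise (log2 difference 1.17, SE 0.09, limma adjusted p = 4.28e-09). In libraries labelled pif4-2 at 27 °C and 7 days 12 of the 14 electron transport genes were higher than in WT, and in hda9-1 12 of 14, with 0 lower in either (all genes called higher: 13.1% and 18.4%). For hda9-1 that share is unlike that of the 42 members, of which 7 were higher; the difference between the lists was not tested.

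At 2 days the same lists in WT moved both ways, in a comparison in which 72% of all genes were called. Of the electron transport genes 3 were higher and 5 lower at 27 °C, a smaller share than that of all genes, and of the assembly genes 5 of 7 were lower. ELIP1 fell most among the antenna relatives (log2 difference -2.77, SE 0.21, limma adjusted p = 1.81e-08). CPFTSY, a receptor that guides antenna proteins into the thylakoid, was lower (log2 difference -0.93, SE 0.07, limma adjusted p = 1.09e-08), and TAP38, the phosphatase that reverses the phosphorylation of LHCII, was higher (log2 difference 1.00, SE 0.10, limma adjusted p = 2.1e-07). Of the regulators 3 were higher and 4 lower, with the GATA factor gene CGA1 the largest fall (log2 difference -1.36, SE 0.18, limma adjusted p = 4.33e-06) and PIF4 the largest rise (log2 difference 1.99, SE 0.23, limma adjusted p = 9.92e-07).

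Markers of other tissues and of stage moved with several of these comparisons, and their part in the results was not tested. NRT2.1 among the root markers and CRU2, CRU3, SESA1, SESA3 and OLEO1 among the seed reserve genes were at 0 in at least 1 library. The summed level of 9 seed reserve genes in WT at 7 days was 7305, 12553 and 9456 normalised counts at 27 °C, against 1849, 3784 and 1276 at 22 °C, and all 6 that were tested were higher at 27 °C. In hda9-1 at 2 days the sum was 235574, 189425 and 178329 at 22 °C, against 304646, 315499 and 206607 in WT, and these groups overlap. At 27 °C and 2 days it was 298699, 327394 and 257600.0 in hda9-1, against 314244, 391143 and 319498 in WT. By temperature at 2 days the sum was higher in every hda9-1 library at 27 °C than in any at 22 °C, and overlapped in WT. Between the ages in WT at 22 °C it was 1849, 3784 and 1276 at 7 days, against 304646, 315499 and 206607 at 2 days. In hda9-1 at 22 °C and 2 days the root markers summed to 8434, 6761 and 7284, against 11114, 8853 and 9051 in WT, and at 27 °C to 6101, 5358 and 4288, against 7928, 6700.1 and 5219.8 in WT. At 22 °C all 3 hda9-1 libraries lie below WT. In libraries labelled pif4-2 at 27 °C and 7 days they summed to 4268, 4012 and 3824, all below the 4564, 4623 and 4624 of WT. Replicate 3 of WT at 22 °C and 2 days, in which the photosystem members were high, had the lowest seed reserve sum of its group. The summed level of 10 root markers in WT at 7 days was 4564, 4623 and 4624 at 27 °C, against 5022, 5039.8 and 5186 at 22 °C, with 5 of 10 lower and 0 higher. At 2 days it was 7928, 6700.1 and 5219.8 at 27 °C, against 11114, 8853 and 9051 at 22 °C, with 4 lower and 5 higher. Every 7-day WT library at 22 °C has a lower root sum than every 2-day one. The 4 shoot epidermis and guard cell markers summed to 16198, 14709 and 17213 at 27 °C, against 17371, 18799.6 and 19085 at 22 °C, in WT at 7 days, with 2 of 4 lower and 0 higher.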

How the data were processed

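RNA of whole seedlings was sequenced from 36 libraries in 12 groups of 3, as 50-base single reads from TruSeq libraries on a HiSeq2500 per the labels. The submitters' processing notes name the build TAIR10 and the tools DESeq, HTSeq, Bowtie, TopHat2 and FastQC, with no strand setting or role given in the sources used here. The signal deposited for each gene is the library's read count after division by that library's size factor, and the files also hold 5 counting categories that were left out of all sums and tests. Whole reads were recovered for 100% of the values within 0.01 of a whole number. The counting categories show 6.05 to 8.42% of reads as not uniquely placed. Sequences and gene models are those of TAIR10.1 from RefSeq, while the deposited files carry no coordinates.

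The test was limma-trend (limma 3.58.1, R 4.3.3, moderated by eBayes) with a pseudocount of 1 before taking log2 and 1 coefficient for each group. Genes entered if 3 or more libraries reached a value of 10. One fit held the 18 libraries of an age, another all 36 for comparisons between ages, and p-values were adjusted over all genes tested by the Benjamini-Hochberg method in each of 27 comparisons. The labels name the libraries as replicates of pooled batches, so each p-value reflects no more than the spread among the libraries shown. The members, the other gene lists and the tests were chosen with earlier results of these data known. All 42 members could be named; per comparison, values were given for up to 4 members of each subset, chosen as the called members with the largest and smallest change in each direction and the most abundant, and some of these are printed. Of other lists the gene with the largest change in each direction was named.

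Replicate numbers in the titles were taken to pair libraries where every same-numbered pair of a comparison deviated together by a correlation over 0.1. They paired the warmth libraries of pif4-2 at 2 days and of hda9-1 at 7 days, the comparisons of pif4-2 with WT at 2 days and that of hda9-1 with WT at 27 °C and 2 days. Alternatives were a pseudocount of 8, no filter, a replicate block, TMM factors, count models on the recovered reads (DESeq2 1.42.0, edgeR 4.0.16), a fit of the compared groups alone, each library left out in turn, and replicate 3 of WT and pif4-2 at 2 days left out. The code was tested on simulated data.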

Additional observations from a re-analysis of the deposited data

Results flagged for a closer look

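The following results differ between groups by a test of the difference itself, an interaction in limma with p adjusted over all genes tested. The response to warmth at 7 days minus that at 2 days differed for 36 members in WT, 14 in libraries labelled pif4-2 and 35 in hda9-1. On the log2 scale it was -2.15 for LHCB2.3, -1.50 for LHCA6, -1.27 for PSAH1 and -1.29 for PSBQ1 in WT. Where the label is pif4-2 it was 2.07 for LHCB1.1 and -1.63 for LHCB2.3. In hda9-1 it was -2.32 for LHCB1.4 and -2.15 for LHCB2.3.

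The response to warmth at 7 days differed from that of WT for 7 members in hda9-1 (all genes called: 3.53%), by 0.38 for PSAD1, 0.52 for PSAD2, 0.45 for PSAF, 0.70 for PSAH2, 0.45 for PSBO2, 0.61 for PSBS and 0.81 for PSBY on the log2 scale. For the label pif4-2 it differed for 3 (all genes called: 2.1%), by 1.07 for LHCA6, 0.57 for PSAH2 and 0.62 for PSBS, and 0 members were called with only the compared groups in the fit. The PSBS call was also lost in most fits without 1 library, for both mutants. At 2 days the response differed from that of WT for 1 member in hda9-1, LHCB4.3, by -0.69 (all genes called: 2.71%).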

How the results depend on the processing

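Over the checks of single named members, 1794 kept their side of the threshold, 220 lost a call and 4 gained one. In 0 checks did the direction turn round with a call in the main fit or the alternative. A change of sign in a member called in neither was not counted. edgeR on the recovered reads called 12064 genes and 32 members for warmth in WT at 7 days, and 15201 genes and 18 members at 2 days. The cause of the changes below was not tested, and the shares of all genes called under those alternatives are not given here. With only the compared groups in the fit, the members called were 12 for warmth in pif4-2 at 7 days, 0 for pif4-2 and 38 for hda9-1 against WT at 22 °C and 7 days, 14 for hda9-1 against WT at 27 °C and 7 days, 0 and 19 for the response of pif4-2 and of hda9-1 minus that of WT at 7 days, and 6 for the response of pif4-2 between ages. DESeq2 called 21 for hda9-1 against WT at 22 °C and 7 days and 14 for the response of pif4-2 minus that of WT at 7 days, where no filter left 4 for hda9-1. Leaving out replicate 3 of WT and pif4-2 at 2 days gave 2 for the response of hda9-1 minus that of WT at 2 days.

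The replicate number as a block, in comparisons whose numbers do not pair, moved warmth in WT at 2 days to 26 members called, the response of hda9-1 minus that of WT at 2 days to 6, most of them higher, and that of pif4-2 at 7 days to 8. It moved no other count by more than 1.5 times.

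Leaving out each library in turn gave 12 to 20 members for warmth at 2 days in WT (7 higher and 8 lower without replicate 3 at 27 °C), 10 to 18 in pif4-2 (11 without replicate 1 or 2 at 22 °C and 10 without replicate 3 at 27 °C, most of them lower) and 18 to 24 in hda9-1. At 7 days it gave 30 to 32 in WT and 16 to 38 in pif4-2. Against WT it gave 25 to 39 and 9 to 40 for hda9-1 at 27 and 22 °C at 2 days, 6 to 10 and 7 to 9 at 7 days, and 18 to 24 and 3 to 16 for pif4-2 at 7 days. For the response minus that of WT it gave 0 to 2 (hda9-1, 2 days), 3 to 7 (hda9-1, 7 days) and 1 to 15 (pif4-2, 7 days). For the response between ages it gave 31 to 41 in WT, 7 to 26 in pif4-2 and 28 to 35 in hda9-1. For 7 against 2 days it gave 21 to 32 in WT and 20 to 24 in hda9-1 at 27 °C, and 20 to 28 in hda9-1 at 22 °C.

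Subset levels as sums in place of means of log2 values gave warmth differences of 0.48, 0.38 and 0.88 for LHCA at 2 days in WT, pif4-2 and hda9-1. At 7 days they gave -0.58 and -0.45 for LHCB, -0.29 and -0.12 for LHCA, and -0.52 and -0.27 for photosystem II in WT and hda9-1, and for pif4-2 the sign turned from -0.14 to 0.03 for LHCB and from -0.10 to 0.16 for LHCA, as it did for LHCB at 2 days from -0.06 to 0.05. TMM factors gave -0.30 for photosystem II in hda9-1. The lowest member value was 79.6 normalised counts, and the effect of unequal depth on the calls was not tested.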
